A study of Mus musculus with 9 samples.

Results

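The Pur family is a set of 3 genes, Pura, Purb and Purg, among the 55421 genes of the count table. The rows were found by matching Ensembl identifiers to these gene names, and all 3 genes had enough counts to be tested. The family was chosen by the Pura counts, which were low in the injured libraries of both genotypes, so the Pura values are given as a description without a test. This holds between the injured groups too, since a choice on both genotypes favours a gene at a like level in both. Purb and Purg were taken for their family and not for their values.

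RNA was sequenced from tdTomato-positive cells sorted from trypsin-dissociated mouse hippocampus, in 3 groups of 3 libraries. The KO mTBI group came from mice with a Tmsb4x conditional knockout after mild traumatic brain injury (mTBI), given as 1 controlled cortical impact. The WT mTBI group came from WT mice with the same injury, and the WT sham group from WT mice operated on without the impact. All groups express tdTomato in neurons. The labels give no Cre driver, deleted part of the gene, strain, age, sex or time after injury, and there is no sham group of knockout mice.

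Pur proteins bind single-stranded, purine-rich DNA and RNA through repeated PUR domains. In neurons, Pur-alpha, the product of Pura, and Pur-beta, the product of Purb, are found in RNA granules that kinesin motors carry along dendrites. Mice without Pura are born but develop tremor and seizures and die young, and changes in human PURA cause a neurodevelopmental disorder with hypotonia and epilepsy. Purb is best known as a repressor of muscle genes such as that of smooth muscle actin, and Purg, which lies head to head with the Werner helicase gene Wrn, has been studied least.

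The genes lie on different chromosomes of GRCm38. Pura (ENSMUSG00000043991) spans 36281097 to 36292535 on the plus strand of chromosome 18, Purb (ENSMUSG00000094483) spans 6467599 to 6475917 on the minus strand of chromosome 11, and Purg (ENSMUSG00000049184) spans 33386325 to 33417467 on the plus strand of chromosome 8. In the GENCODE annotation the Pura transcript has 2 exons and 5957 bases, of which 963 code for protein in 1 exon. Purb is 1 exon of 8319 bases with 972 coding bases, so most of the counted length of both genes is untranslated. Purg has 2 transcripts, of 1064 and 1795 bases, that together cover 1975 bases.

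No identical stretch between the paralogs was as long as a read of 150 bp. Nearly identical stretches, shortened reads and copies elsewhere in the genome were not tested. The longest identical stretch between the transcripts of Pura and Purb was 44 bases, and those between Purg and either of them were 20 bases. No annotated exon of another gene in the table overlapped those of Pura or Purg. Gm22123 shares 53 exon bases with Purb, and the antisense gene Gm11973 shares 285. The 1 to 8 counts of Gm11973 per library are few beside the 15849 to 18052 counts of Purb, although reads falling on both genes would have been counted for neither.

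Libraries held 36452443 to 39590872 counts. Tmsb4x, the targeted gene, stood at 1.83 to 2.79 CPM in KO mTBI, at 296.9 to 899.5 CPM in WT mTBI and at only 1.68 to 2.73 CPM in WT sham, so the sham libraries did not show the level their genotype label implies and are called the libraries labelled WT sham. CPM put the counts of each library on the same total, after a correction for composition (TMM). Those sham libraries were also nearly alike, with variances between pairs of 1.44 to 1.59 times counting noise, against 11.9 to 22.4 times in KO mTBI and 10.6 to 38.9 times in WT mTBI. Every SD and p against sham takes them as 3 mice, as labelled, and the p of KO mTBI against WT mTBI shares the same spread estimate. WT mTBI replicate 3 had 834.9 CPM of Xist, the RNA of the inactive X chromosome, with Y-linked Ddx3y at 0.0498 CPM, while the other 8 libraries had at most 0.892 CPM of Xist and at least 49.7 CPM of Ddx3y. Markers of all 6 cell types examined were detected in every library, neuronal ones included. Oligodendrocyte markers summed to 5051 to 9245 CPM and astrocyte markers to 4011 to 5149 CPM, beside 8807 to 10054 CPM for neuronal markers. The levels are therefore not read as those of neurons alone.

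Pura was the member that stood apart. It had 27.5, 35.8 and 36.8 CPM in KO mTBI, from 1050, 1400 and 1432 counts. It had 32.8, 41.2 and 32.0 CPM in WT mTBI, from 1279, 1616 and 1284 counts. The libraries labelled WT sham had 75.9, 76.6 and 71.5 CPM, from 2924, 2779 and 2733 counts. All 6 injured libraries lay below all 3 sham libraries, with a wide gap between the highest injured and the lowest sham library. This order was met by 799 of 20032 tested genes (3.99%), and as it chose the family nothing is read from it.

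The mean of Pura was 33.3 ± 5.13 CPM in KO mTBI, 35.3 ± 5.10 CPM in WT mTBI and 74.7 ± 2.74 CPM in the libraries labelled WT sham (SD, n = 3 each). The fitted change was log2 -1.16 (SE 0.13) for KO mTBI and -1.08 (SE 0.12) for WT mTBI against sham, which is 2.24-fold and 2.11-fold lower. These differences share the sham libraries. Relative to the sham mean, the lowest library was KO mTBI replicate 1 at 36.8% and the highest injured library WT mTBI replicate 2 at 55.2%, so the injured libraries differed among themselves by more than the sham libraries, which lay between 95.8% and 102.6%. In these bulk libraries, fewer cells of a type and less RNA per cell cannot be told apart.

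**Figure D1:**
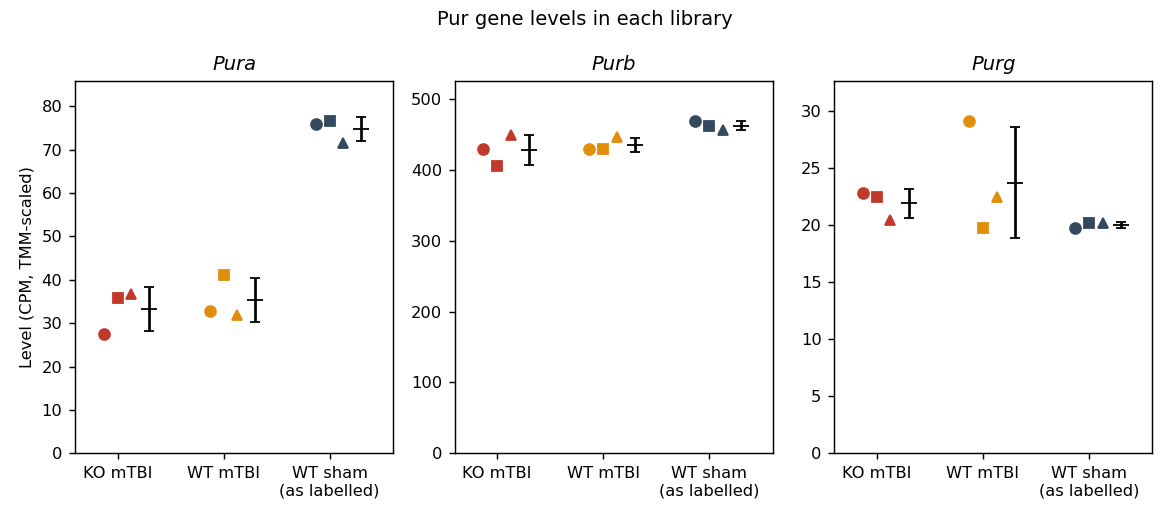
Level in CPM (linear axes from 0) of Pura, Purb and Purg in each library of the 3 groups; circles, squares and triangles are replicates 1, 2 and 3, and bars are mean and SD (n = 3). Pura lies at 27.5 to 41.2 CPM in injured libraries and at 71.5 to 76.6 CPM in sham, while Purb and Purg differ little.

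Purb, the most abundant member, differed little between the groups. It had 429.6, 405.4 and 448.2 CPM in KO mTBI, 429.8, 429.1 and 445.8 CPM in WT mTBI, and 468.7, 461.2 and 456.5 CPM in the libraries labelled WT sham. All injured libraries were below the lowest sham library, the order that 3.99% of tested genes met, by a margin far smaller than for Pura. The change was log2 -0.11 (SE 0.06) for KO mTBI against sham, with a 95% interval of -0.25 to 0.03 (edgeR, adjusted p = 0.841), and -0.09 (SE 0.06, interval -0.23 to 0.05, adjusted p = 0.574) for WT mTBI against sham. Neither passed.

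Purg varied most within WT mTBI. It had 22.8, 22.4 and 20.4 CPM in KO mTBI, 29.1, 19.7 and 22.4 CPM in WT mTBI, and 19.7, 20.2 and 20.2 CPM in the libraries labelled WT sham. The high library was WT mTBI replicate 1, and WT mTBI replicate 2 was at the sham level, so WT mTBI overlapped sham. The change was log2 0.13 (SE 0.13, interval -0.16 to 0.41, edgeR adjusted p = 0.999) for KO mTBI and 0.24 (SE 0.13, interval -0.04 to 0.53, adjusted p = 0.437) for WT mTBI against sham. Neither passed. Without WT mTBI replicate 1 the second of these was log2 0.07, so 1 library carried most of it.

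Between the injured groups, neither Purb nor Purg passed. KO mTBI minus WT mTBI was log2 -0.02 for Purb (SE 0.06, interval -0.17 to 0.12, edgeR adjusted p = 0.925) and -0.12 for Purg (SE 0.13, interval -0.40 to 0.17, adjusted p = 0.804). For Pura it was -0.08 (SE 0.12), a value with no test. The sign for Pura turned without KO mTBI replicate 1 (0.04) and without WT mTBI replicate 2 (0.05), that for Purb without KO mTBI replicate 2 (0.02), and that for Purg without WT mTBI replicate 1 (0.06). Over all genes, 0.0150% were called at an adjusted p under 0.05 in this comparison, 0.0699% in KO mTBI against sham and 0.509% in WT mTBI against sham. These shares rest on 3, 14 and 102 genes, and leaving out 1 library gave 2 to 7, 2 to 128 and 5 to 252.

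**Figure D2:**
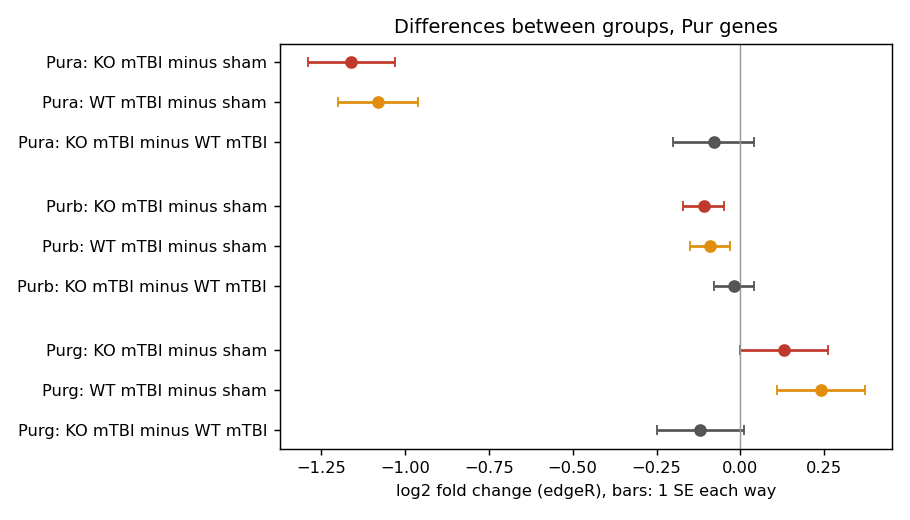
Fitted log2 fold changes (edgeR, 9 libraries) of the 3 genes in the 3 comparisons, with bars of 1 SE each way. The Pura changes against the libraries labelled WT sham, -1.16 and -1.08, are the contrasts that chose the family; the other 7 lie between -0.12 and 0.24.

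Levels between genes were compared per kilobase of annotated exon. On that scale Purb was the highest member in every library. Its level was 51.4 ± 2.58 CPM per kilobase in KO mTBI, 52.3 ± 1.14 in WT mTBI and 55.6 ± 0.738 in the libraries labelled WT sham (SD, n = 3 each). Below it, the order of the other members differed between injured and sham libraries. Pura stood at 5.60 ± 0.861 CPM per kilobase in KO mTBI and 5.93 ± 0.856 in WT mTBI, against 12.5 ± 0.459 in sham. Purg stood at 11.1 ± 0.648 in KO mTBI and 12.0 ± 2.46 in WT mTBI, against 10.1 ± 0.127 in sham. Purg was therefore above Pura in all 6 injured libraries and below it in all 3 sham libraries, with no overlap between the genes within any group. This switch carries the Pura values that chose the family, so it is a description and nothing is read from it. The level per length of Purg rests on short annotated transcripts, and how longer ones would change it was not tested.

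The Pura share of the summed level of the family per kilobase was 8.22% ± 1.24 in KO mTBI, 8.47% ± 1.42 in WT mTBI and 16.0% ± 0.407 in the libraries labelled WT sham. The sum itself was 68.1 ± 2.16, 70.2 ± 1.73 and 78.2 ± 1.02 CPM per kilobase in the same groups. Most of the family RNA was that of Purb in every library, and the sum moved far less than Pura. The ratio of Pura to Purb, both per kilobase, was 0.109 ± 0.0177 in KO mTBI, 0.114 ± 0.0180 in WT mTBI and 0.226 ± 0.00655 in sham. The share and the ratio restate the Pura values that chose the family, so they too are descriptions.

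**Figure D3:**
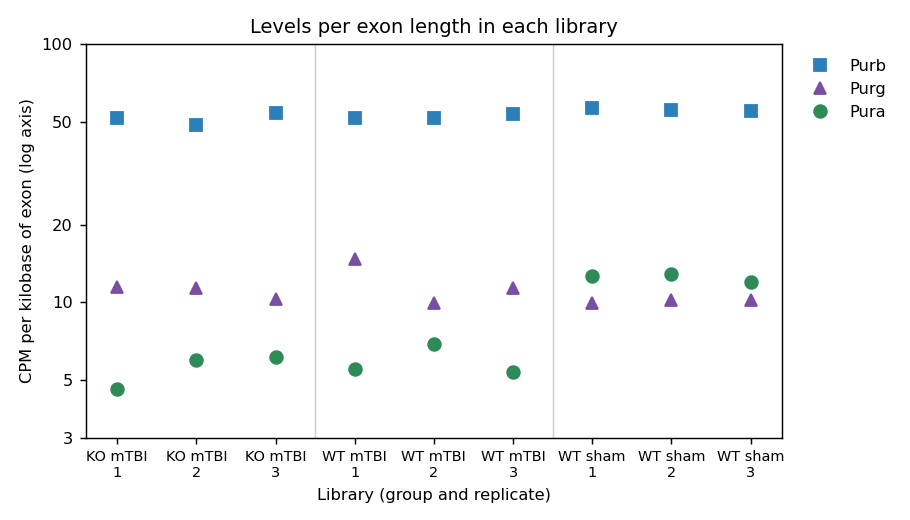
CPM per kilobase of exon (log axis) of Purb, Purg and Pura in each of the 9 libraries. Purb lies at 48.7 to 56.3 in all of them, while Pura is below Purg in the 6 injured libraries and above it in the 3 labelled WT sham.

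Marker sums of cell types were set beside Pura, with their part in its level not tested. Each list had 6 or 7 genes, all detected in every library. The 7 choroid plexus and ependyma markers summed to 60.2, 3687 and 2949 CPM in KO mTBI replicates 1, 2 and 3, to 3178 to 4380 CPM in WT mTBI and to 54.0 to 54.6 CPM in the libraries labelled WT sham. KO mTBI replicate 1, whose choroid sum was close to sham, had the lowest Pura level of all 9 libraries, 27.5 CPM. The 7 neuronal markers summed to 9251 to 9802 CPM in KO mTBI, 8807 to 9876 CPM in WT mTBI and 9845 to 10054 CPM in sham. WT mTBI replicate 2 had the highest neuronal sum, 9876 CPM, and the highest Pura level, 41.2 CPM, of the 6 injured libraries. WT mTBI replicate 3 had the lowest neuronal sum, 8807 CPM, and 32.0 CPM of Pura.

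The other lists did not separate the groups as Pura did, astrocyte markers apart. The 7 astrocyte markers summed to 4384 to 4989 CPM in KO mTBI and 4011 to 4741 CPM in WT mTBI, against 5051 to 5149 CPM in the libraries labelled WT sham. Oligodendrocyte markers summed to 6268 to 7389 CPM in KO mTBI, 5051 to 9245 CPM in WT mTBI and 6471 to 6515 CPM in sham, so both injured groups overlapped the sham range. Microglial markers (251.9 to 318.5 CPM, 247.8 to 290.0 CPM and 261.9 to 267.7 CPM in KO mTBI, WT mTBI and sham) and endothelial markers (219.0 to 247.4 CPM, 207.6 to 238.0 CPM and 216.2 to 230.1 CPM in the same groups) did so too.

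**Figure D4:**
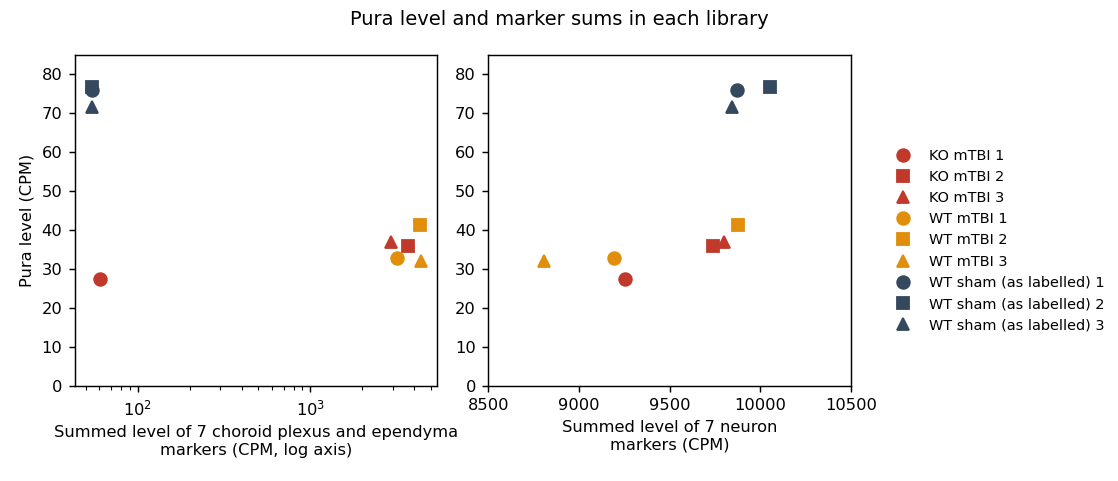
Pura level (CPM) in each library against the summed level of 7 choroid plexus and ependyma markers (left, log axis) and of 7 neuronal markers (right). KO mTBI replicate 1 has a choroid sum of 60.2 CPM, near the sham libraries, and the lowest Pura level, 27.5 CPM.

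None of the genes around Pura was called. Of all tested genes, 0.509% were called in WT mTBI against sham, 0.0699% in KO mTBI against sham and 0.0150% between the injured groups. Little can therefore be read from the lack of calls here. Of the 6 nearest genes in the table, 3 on each side, 5 were tested in each comparison. Of these, 4 had positive changes in either injured group against the libraries labelled WT sham. Over all tested genes, 47.4% of changes were negative in KO mTBI and 47% in WT mTBI against sham. Igip, the IgA-inducing protein gene and the next one on the same strand, begins 6143 bases beyond the end of Pura. It had 112.7, 98.5 and 104.6 CPM in KO mTBI, 122.2, 102.3 and 104.3 CPM in WT mTBI, and 93.0, 92.5 and 87.8 CPM in the libraries labelled WT sham. All 6 injured libraries were above all 3 sham libraries, an order that 3.64% of tested genes met, and the changes of log2 0.21 (SE 0.09, edgeR adjusted p = 0.613) for KO mTBI and 0.27 (SE 0.09, adjusted p = 0.223) for WT mTBI did not pass. Psd2, which acts on ARF GTPases, had log2 0.08 in KO mTBI (adjusted p = 0.999) and 0.38 in WT mTBI (adjusted p = 0.0716). Nrg2, a neuregulin growth factor, had 0.19 (adjusted p = 0.956) and -0.05 (adjusted p = 0.917), Cystm1 0.22 (0.964) and 0.39 (0.361), and the prefoldin subunit gene Pfdn1 -0.03 (0.999) and 0.20 (0.453), in the same order of comparisons.

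No gene beside Purb or Purg was called either, from which little can be read at those shares of calls over all genes. Wrn, whose start lies 797 bases from that of Purg on the other strand, had 13.8 ± 0.458 CPM in KO mTBI, 13.7 ± 0.730 CPM in WT mTBI and 13.9 ± 0.454 CPM in sham (SD, n = 3 each). Its changes were log2 -0.01 and -0.02 (adjusted p = 0.999 and 0.957). Of the 8 genes near or overlapping Purb 2 were tested, Myo1g and Snhg15, and of the 6 near Purg 4 were tested. Their adjusted p lay between 0.486 and 0.999.

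Genes were ranked by how closely their log2 CPM followed each member over the 9 libraries, among 15017 other genes whose counts averaged 50 or more. The libraries share the step between injured and sham, so the correlations are descriptions. The 5 genes most like Pura were Scai, a suppressor of invasion that acts on SRF coactivators (Pearson r = 0.983), the ubiquitin ligase gene Ube3a (0.981), the RING finger gene Rnf217 (0.979), Nol4 (0.979) and the predicted gene Gm38393 (0.977). Ube3a had 70.3, 76.2 and 75.8 CPM in KO mTBI, 68.3, 79.3 and 70.7 CPM in WT mTBI, and 94.8, 94.8 and 92.7 CPM in the libraries labelled WT sham. Scai had 61.8, 64.7 and 68.0 CPM in KO mTBI, 59.8, 70.4 and 62.4 CPM in WT mTBI, and 86.0, 88.2 and 85.3 CPM in sham. For each of these 5 genes all 6 injured libraries lay below all 3 sham libraries, an order that 3.99% of tested genes met. Their steps were smaller than that of Pura, at log2 changes of -0.42 for Scai, -0.34 for Ube3a, -0.40 for Rnf217, -0.23 for Nol4 and -0.77 for Gm38393 in KO mTBI against sham. Over the 6 injured libraries alone, their r with Pura was 0.815 for Scai, 0.831 for Ube3a, 0.877 for Rnf217, 0.949 for Nol4 and 0.875 for Gm38393. The same 6 libraries were part of the ranking that picked these genes, so nothing is read from these values. The most opposite genes were Hoga1 (-0.956), Smim1 (-0.952) and C920006O11Rik (-0.949). C920006O11Rik had 4.08, 1.66 and 3.36 CPM in KO mTBI and 2.49, 3.26 and 3.16 CPM in WT mTBI, against 0.415, 0.386 and 0.314 CPM in sham, and its r over the injured libraries was -0.310.

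The genes most like Purb were the kinase genes Taok3 (r = 0.965) and Camk1g (0.961), the scaffold gene Erbin (0.945), the BMP receptor gene Bmpr1a (0.925) and Lrrcc1 (0.923). The most opposite to it were the muscle glycogen phosphorylase gene Pygm (-0.953), Scrt2 (-0.949) and the aldehyde dehydrogenase gene Aldh2 (-0.942). The genes most like Purg were Pnrc1 (0.975), Tmbim6 (0.966), Stmn4 (0.964), the ribosomal protein gene Rpl28 (0.962) and the elongation factor gene Eef1d (0.961), and all of these were highest in WT mTBI replicate 1. Without that library their r fell to 0.915, 0.837, 0.831, 0.863 and 0.811. Among the most opposite to Purg were Gramd1b (-0.993) and Ncoa1 (-0.986). Among the members, r was 0.727 between Pura and Purb over 9 libraries and -0.0886 over the 6 injured ones, so that relation lay in the step between injured and sham. Between Pura and Purg r was -0.585 over 9 libraries and -0.479 over the 6 injured ones. Between Purb and Purg it was -0.469 and -0.159.

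Genes linked to Pur proteins in the literature of the field were taken as 5 lists with 53 genes, all of them tested. None of the 53 was called in any comparison (edgeR), beside 0.509%, 0.0699% and 0.0150% of all genes in WT mTBI against sham, KO mTBI against sham and KO mTBI against WT mTBI. Of the 53, 9 had an unadjusted p under 0.05 in WT mTBI against sham, 4 in KO mTBI against sham and 7 in KO mTBI against WT mTBI, where 13.2%, 7.20% and 6.60% of all tested genes did. DESeq2 called 3, 1 and 0 of them in the same order, beside 2.70%, 1.13% and 0.0899% of all genes with its adjusted p. Limma voom called 4, 2 and 0, beside 3.60%, 1.39% and 0.0200% of all genes. The 3 and 1 of DESeq2 were Map2, Kif5a and Arc, and Sfpq. The medians over the 53 genes were log2 0.01, 0.00 and -0.03, beside 0.02, 0.01 and 0.00 over all tested genes.

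The first list holds 18 genes of proteins reported with Pur proteins in kinesin-carried RNA granules, the kinesin heavy chains included. Its median was log2 -0.02 in KO mTBI against sham and -0.02 in WT mTBI against sham, with 9 positive and 9 negative changes in both. Sfpq, which encodes an RNA-binding splicing factor, was at 169 ± 10.4 CPM in KO mTBI and 186 ± 17.1 CPM in WT mTBI, against 218 ± 6.06 CPM in the libraries labelled WT sham (SD, n = 3 each). Its changes of log2 -0.36 (edgeR adjusted p = 0.171) and -0.23 (adjusted p = 0.269) did not pass. The neuronal kinesin gene Kif5a was at 2493 ± 126 CPM in KO mTBI and 2101 ± 297 CPM in WT mTBI, against 2717 ± 21.0 CPM in sham, with adjusted p = 0.961 and 0.131. Kif5c was at 964 ± 19.5, 927 ± 27.9 and 989.6 ± 16.0 CPM, Kif5b at 217 ± 17.3, 203 ± 9.13 and 239 ± 2.21 CPM, and the fragile X gene Fmr1 at 61.4 ± 3.16, 66.7 ± 1.58 and 70.6 ± 1.92 CPM, in KO mTBI, WT mTBI and sham.

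The second list holds 8 RNAs known to lie in dendrites, the cargo side of such granules. Of these, 7 were negative in KO mTBI and 5 in WT mTBI against sham, where 47.4% and 47% of all tested genes were negative. The list median was log2 -0.06 in both comparisons, and none of the 8 was called. Map2, the gene of a dendritic microtubule protein, was at 1332 ± 103 CPM in KO mTBI and 1134 ± 160 CPM in WT mTBI, against 1564 ± 28.9 CPM in the libraries labelled WT sham. Its changes were log2 -0.23 (edgeR adjusted p = 0.654) and -0.46 (adjusted p = 0.0727). The immediate early gene Arc was at 69.8 ± 9.59 CPM in KO mTBI and 105.7 ± 39.2 CPM in WT mTBI, against 60.6 ± 1.14 CPM in sham (adjusted p = 0.999 and 0.135). The noncoding RNA Bc1, which Pur-alpha binds, was at 70.6 ± 39.4, 126 ± 47.6 and 97.1 ± 31.3 CPM in KO mTBI, WT mTBI and sham, and so varied widely within each group. Camk2a was at 4389 ± 361, 3961 ± 540 and 4641 ± 64.0 CPM, and the postsynaptic gene Ddn at 1784 ± 155, 1683 ± 227 and 1793 ± 12.0 CPM.

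The third list holds 11 genes of nucleic acid-binding and transcription partners. Ybx1, whose cold-shock protein works with Pur proteins on single-stranded DNA, was at 141.5 ± 9.15 CPM in KO mTBI and 156 ± 13.9 CPM in WT mTBI, against 148 ± 2.91 CPM in the libraries labelled WT sham (adjusted p = 0.999 and 0.684). The retinoblastoma gene Rb1 was at 35.4 ± 1.37, 37.7 ± 3.72 and 41.7 ± 0.977 CPM in KO mTBI, WT mTBI and sham (adjusted p = 0.497 and 0.473 against sham). E2f1, a cell-cycle transcription factor gene, was at 5.07 ± 0.211, 6.60 ± 0.974 and 5.18 ± 0.332 CPM, and the cyclin gene Ccna2 at 2.15 ± 0.172, 2.18 ± 0.467 and 2.78 ± 0.292 CPM. Hnrnpk and Sp1 had changes between log2 -0.19 and 0.05 against sham in either injured group.

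Of the 4 genes whose promoters Pur proteins are known to bind, Mbp, the myelin basic protein gene, was at 3054 ± 305 CPM in KO mTBI and 3248 ± 873 CPM in WT mTBI, against 2953 ± 12.6 CPM in the libraries labelled WT sham (edgeR adjusted p = 0.999 and 0.723). The smooth muscle actin gene Acta2 was at 19.0 ± 5.83 CPM in KO mTBI and 13.3 ± 1.75 CPM in WT mTBI, against 16.1 ± 1.14 CPM in sham (adjusted p = 0.958 and 0.555). The cardiac myosin gene Myh6 was at 16.1 ± 3.44, 12.0 ± 3.95 and 15.7 ± 1.09 CPM, and Myh7 at 3.08 ± 0.226, 3.80 ± 1.05 and 2.17 ± 0.431 CPM in KO mTBI, WT mTBI and sham. None passed, and the means of the 2 injured groups lay on opposite sides of sham for Acta2. Its KO mTBI libraries, at 25.4, 14 and 17.7 CPM, overlapped those labelled WT sham, at 14.8, 16.5 and 16.9 CPM.

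The last list holds 12 genes, those of P-bodies and Sqstm1, which is counted with them. P-bodies are cytoplasmic sites of RNA storage and decay that were reported to need Pur-alpha in human cells. The median of this list was log2 0.02 in KO mTBI and 0.01 in WT mTBI against sham. Its changes ran from -0.06 to 0.13 and from -0.27 to 0.11. The helicase gene Ddx6 was at 189 ± 3.44 CPM in KO mTBI and 183 ± 9.31 CPM in WT mTBI, against 194.5 ± 0.438 CPM in the libraries labelled WT sham. The autophagy receptor gene Sqstm1 was at 416 ± 10.4, 414 ± 34.6 and 409 ± 3.62 CPM in KO mTBI, WT mTBI and sham. The exonuclease gene Xrn1 was at 51.7 ± 5.25, 42.9 ± 6.85 and 51.6 ± 1.46 CPM, with adjusted p = 0.356 in WT mTBI against sham. The decapping genes Dcp1b and Edc3 had log2 0.13 and 0.11 in KO mTBI against sham, and Lsm14b had log2 -0.16 in KO mTBI against WT mTBI (adjusted p = 0.732).

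**Figure D5:**
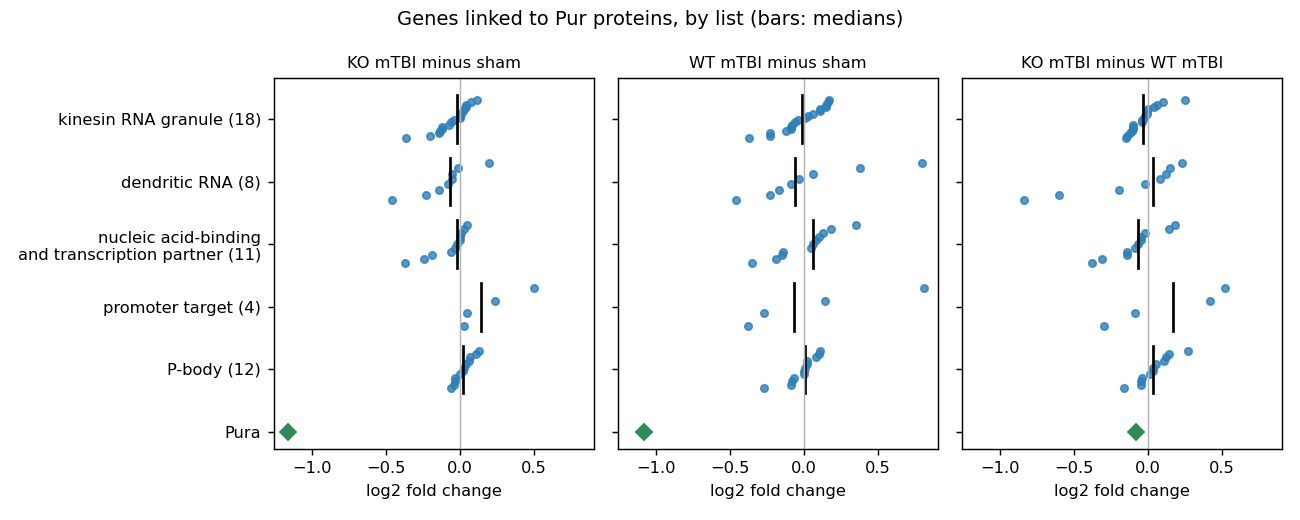
Log2 fold changes (edgeR) of the members of 5 lists of genes linked to Pur proteins, with the number of genes in brackets, in 3 comparisons; points are genes, black bars list medians, and the diamond is Pura. List medians lie between -0.07 and 0.16, and the diamond at -1.16 and -1.08 against the libraries labelled WT sham and at -0.08 between the injured groups.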

How the data were processed

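The deposited values are raw read counts per Ensembl gene in 9 libraries, which the authors obtained by running featureCounts 2.0.6 on exons (Ensembl release 98, GRCm38), per the file headers. The command sets no strand and no counting of read pairs as fragments, so mates were counted singly by that version's defaults, and 58.7% to 60.3% of nonzero counts were even. HISAT2 and Trim Galore are named in the submitters' processing notes, without versions. Names, positions and exon lengths came from GENCODE M21 (GRCm38), which matched 55240 of 55421 identifiers.

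Genes were filtered with filterByExpr (20032 kept), scaled by TMM and compared by edgeR 4.0.16 (quasi-likelihood F test, two-sided) in R 4.3.3, with 1 spread for the 3 groups and Benjamini-Hochberg adjustment over all genes; calls needed an adjusted p under 0.05. Pura is given without a test in all 3 comparisons, the planned one between the injured groups included, as both genotypes entered its choice. Alternatives used DESeq2 1.42.0 and limma 3.58.1, among others. Levels are CPM. P-values weigh each difference against the spread between libraries shared by the 3 groups. The tests use a spread for each gene. As a summary over all genes, the common biological coefficient of variation was 18.7% in KO mTBI, 19.6% in WT mTBI, 3.27% in sham and 15.3% over all groups together. The shared value lay below that of both injured groups, so p between the injured groups may be too small.

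Members and lists were chosen with earlier results of these data known. Named genes are the family, list members called, of smallest p or most abundant, the 3 nearest genes on each side or overlapping, and the 5 most like and 3 most opposite genes by Pearson r of log2 CPM (prior count 2). A few genes that this rule names are not reported here.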

Additional observations from a re-analysis of the deposited data

How the results depend on the processing

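Each result was recomputed under 19 alternatives. For 1 of them, a choroid plexus covariate, the markers summed to 54.0 to 54.6 CPM in sham and 60.2 CPM in KO mTBI replicate 1. In the other injured libraries they summed to 2949 to 4380 CPM, so the covariate nearly repeated injury against sham apart from 1 library. Pura against sham stayed lower in all alternatives, at log2 -1.54 to -1.02 in WT mTBI and -1.48 to -1.04 in KO mTBI. It moved beyond the spread of its libraries only with that covariate (-1.54, SE 0.20, and -1.48, SE 0.16), which is not read as a correction. With the sham libraries summed to 1 sample, these changes were -1.08 (SE 0.19) and -1.16 (SE 0.19). No difference of Purb or Purg passed under any alternative, at adjusted p of at least 0.190. Pura between the injured groups lay between log2 -0.16 and 0.07, with no test. For KO mTBI minus WT mTBI, the sign turned for Pura with the covariate (0.07) and for Purg in voom with quality weights (0.0037). Leaving out 1 library gave values between -0.16 and 0.05 for Pura, -0.06 and 0.02 for Purb and -0.22 and 0.06 for Purg in that comparison. The members of the 5 lists called in WT mTBI against sham were 3 with DESeq2 (Map2, Kif5a and Arc), 4 with voom (Map2, Kif5a, Kif5b and Myh7), 3 with no low-count filter (those of DESeq2) and between 0 and 2 without 1 library (Map2 and Arc without WT mTBI replicate 2). In KO mTBI against sham they were 1 with DESeq2 (Sfpq), 2 with voom (Map2 and Sfpq), 1 with no filter, 1 with the 6 libraries compared (Sfpq in both) and between 0 and 1 without 1 library (Sfpq without WT mTBI replicate 1). Between the injured groups 1, Arc, was called with no filter. Calls over all genes were 541, 226 and 18 with DESeq2, 722, 279 and 4 with voom, 676, 387 and 68 with no filter, 1, 0 and 1 with sham summed, 253, 71 and 1 with the 6 libraries compared, 45, 74 and 6 with the covariate and 64, 14 and 3 with a stricter filter, against 102, 14 and 3 in WT mTBI against sham, KO mTBI against sham and KO mTBI against WT mTBI. In the same order they were 252, 128 and 3 without KO mTBI replicate 1, 123, 26 and 3 without KO mTBI replicate 2, and 40, 5 and 4 without KO mTBI replicate 3. They were 151, 56 and 5 without WT mTBI replicate 1, 82, 18 and 3 without WT mTBI replicate 2, and 26, 21 and 7 without WT mTBI replicate 3. Without sham replicate 1, 2 or 3 they were 5, 5 and 9 in WT mTBI against sham and 3, 2 and 5 in KO mTBI against sham. Same-numbered libraries did not deviate together (correlations of -0.0887 to 0.0733), so the numbers were not taken as pairs. With the replicate number as a block, Pura was at log2 -1.09, -1.17 and -0.08, Purb at -0.09, -0.11 and -0.02, and Purg at 0.23, 0.13 and -0.11 in those comparisons, with 107, 13 and 3 calls over all genes.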
